A study of Mus musculus with 48 samples.

Results

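The 10 genes Lcmt2, Prkab1, Heatr3, Nrde2, Wdr73, Hmgb3, Snapin, Supv3l1, Wdr37 and Slc35b3 were described because their RNA was lower after heat in at least 2 of 3 tissues of lactating mice. They are 10 of the 58913 genes in the deposited tables, and 10 of the 35 genes that met that condition. RNA sequencing covered hypothalamus, pituitary and the left inguinal mammary gland (number 4) of ICR dams, an outbred laboratory stock, with 8 control and 8 heat libraries per tissue and 48 in all. The dams were 10 weeks old and at day 13 of lactation, near peak milk yield. Control dams were kept at 25 °C and heat dams at 36 °C, both at 55% relative humidity, and all were killed directly at the end of the treatment; the labels do not give its length and name no genetic modification. The labels call the libraries biological replicates. Values are FPKM, fragments per kilobase of gene length scaled to a denominator per library, which puts different genes on 1 scale per length. Bulk tissue was sequenced, so fewer cells of a type and less RNA per cell cannot be told apart in any value below.

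The 10 genes share no single pathway. Several serve the making and clearing of RNA and protein. Wybutosine is a bulky base made next to the anticodon of phenylalanine tRNA, and Lcmt2 carries out a late step of its synthesis. Ribosomes are assembled in the nucleolus, and HEATR3 is known from human cells and yeast as a carrier of ribosomal protein RPL5. NRDE2 and WDR73 are known from human cells as partners of nuclear RNA-processing machines. AMP-activated protein kinase, to which Prkab1 gives a regulatory subunit, senses low energy charge in the cell and in the hypothalamus also bears on feeding. The other members bend DNA (Hmgb3), move vesicles and lysosomes (Snapin), unwind mitochondrial RNA (Supv3l1), pair with PACS sorting proteins (Wdr37) or carry the activated sulfate donor into the Golgi (Slc35b3).

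Fragments on annotated genes were recovered from the steps of the FPKM values. A hypothalamus library held 16272700 to 22166100 of them, while pituitary libraries held 10893100 to 17246500 and the mammary range was 11586400 to 17809300. The smallest level distinguishable from a count of 0, taken as 3 fragments in a gene of 1 kb, was 0.105 to 0.143, 0.110 to 0.167 and 0.322 to 0.600 FPKM in these tissues, for counting error only. The heat-inducible chaperone gene Hspa1b was higher in every heat library than in every control library of its tissue (log2 change 2.71, 5.61 and 5.50). Markers of each labelled tissue were present. The summed level of 8 neuronal and neuropeptide genes was 1591 to 3283 FPKM in control hypothalamus. It was 51.8 to 150 FPKM in control pituitary and at most 0.553 FPKM in control mammary gland. A sum of 9 pituitary genes varied widely in control pituitary, from 4176 to 44190 FPKM. It was at most 78.05 FPKM in control hypothalamus and 11.1 FPKM in control mammary gland. The sum of 7 milk and mammary epithelial genes was at least 103800 FPKM in control mammary gland.

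In the all-gene comparison of heat with control (limma on log2(FPKM + 1), adjusted p under 0.05), 0.122% of 13959 tested genes were lower in hypothalamus, 1.42% of 14094 in pituitary and 2.47% of 12586 in mammary gland. Of 13162 genes tested in at least 2 tissues, 0.266% were lower in at least 2, and of 9687 tested in all 3 tissues 0.0206% were lower in all 3, namely Lcmt2 and Prkab1. The 10 genes were taken from the 35 that those calls gave, so their heat changes are given as a description with no test. Those calls do not set the 10 apart from the other 25, among them Cirbp, which serves below to check the treatment labels. All 10 passed the filter on low values (mean of at least 1 FPKM) in each tissue. In hypothalamus 5 of the 10 had passed, namely Lcmt2, Prkab1, Heatr3, Nrde2 and Wdr73. In pituitary 7 had passed, that is all but Heatr3, Nrde2 and Wdr73, and in mammary gland all 10. The members just inside the threshold were Wdr73 in mammary gland (adjusted p = 0.0497), Supv3l1 in pituitary (0.0356) and Wdr37 in mammary gland (0.0347), and those just outside were Heatr3 (0.107) and Nrde2 (0.114) in pituitary and Supv3l1 in hypothalamus (0.206), all from limma.

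The log2 change of FPKM + 1, heat minus control, was negative for each of the 10 genes in each of the 3 tissues. Its median over the 10 was -0.22 in hypothalamus, -0.29 in pituitary and -0.49 in mammary gland, against 0.003, 0.005 and -0.010 over all tested genes. The 10 values ranged from -0.45 to -0.04 (hypothalamus), -0.44 to -0.07 (pituitary) and -1.06 to -0.26 (mammary gland). The pseudocount of 1 makes these changes smaller than the change of the FPKM itself, most of all for genes near 1 FPKM. The genes are of low to moderate abundance: 17 to 2074 fragments per library lay behind the values, and the control means ranked between the 10.2 and 83.3 percentiles of tested genes (hypothalamus), the 26.4 and 80.0 (pituitary) and the 32.1 and 79.5 (mammary gland). The groups did not overlap at all, with every heat library below every control library, for 3 members in hypothalamus, 1 in pituitary and 5 in mammary gland. Over all tested genes 0.136%, 0.454% and 0.389% showed this.

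**Figure D1:**
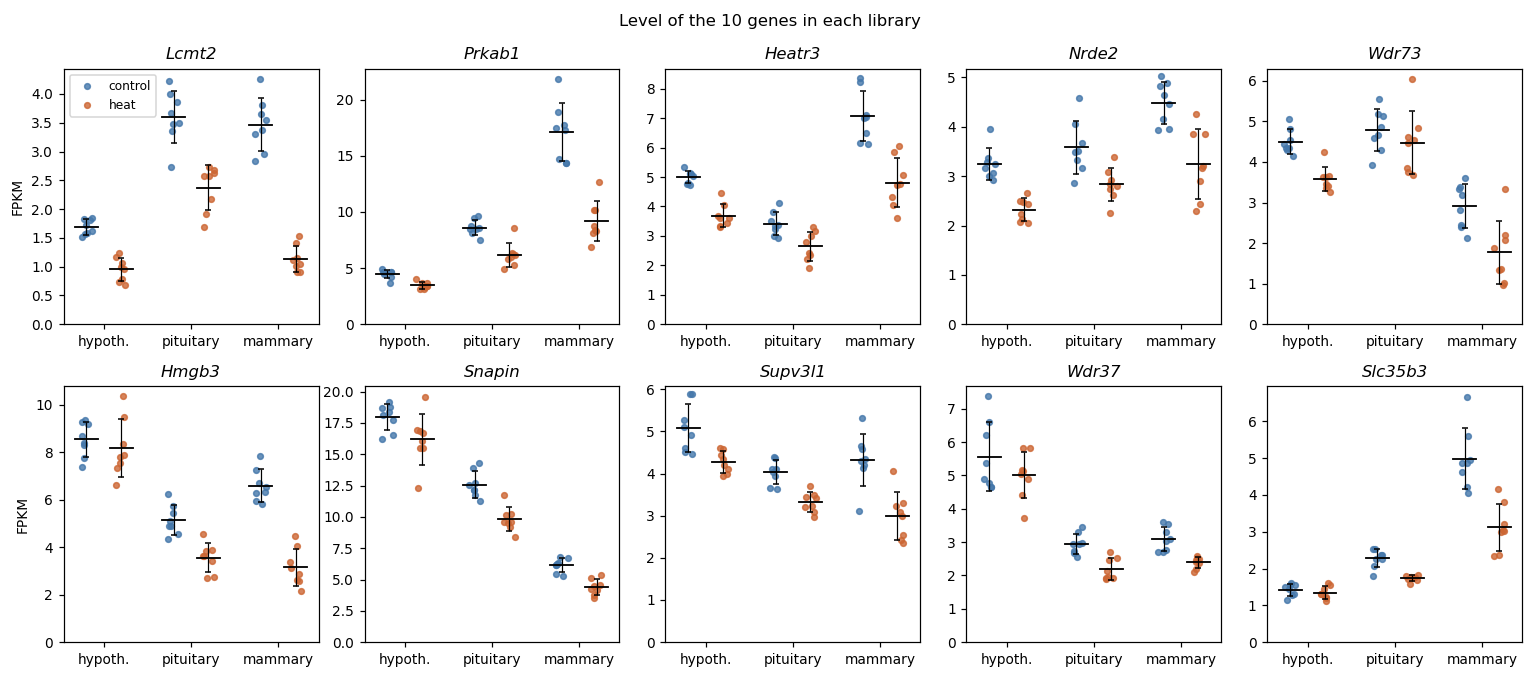
FPKM of each of the 10 genes in every library of hypothalamus (hypoth.), pituitary and mammary gland, control in blue and heat in orange; points are libraries, the horizontal line is the mean and the bar 1 SD (n = 8). Lcmt2 was the single gene of the 10 whose heat and control libraries did not overlap in any of the 3 tissues.

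**Figure D2:**
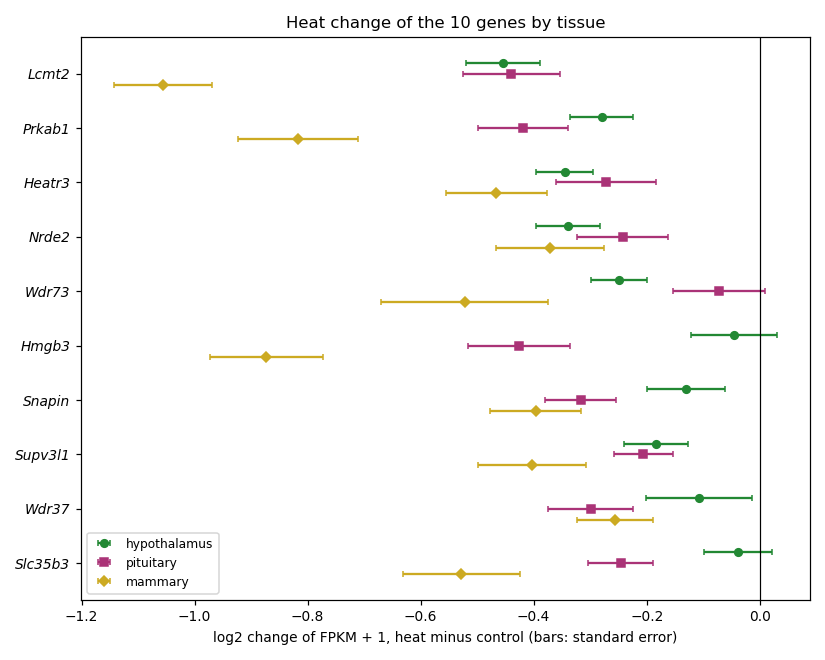
Log2 change of FPKM + 1, heat minus control, with its standard error for the 10 genes in the 3 tissues (8 heat and 8 control libraries each). All 30 values lie below 0, and they describe a contrast that was used to choose the genes.

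The sequences just upstream of the annotated starts are given for 4 members: Lcmt2 and Prkab1, lower in all 3 tissues, Hmgb3, and Nrde2, which carries an ETS match. They are RefSeq promoter windows on GRCm38.p6, written 5′ to 3′ on the gene's strand, limited to bases outside annotated exons, with motif matches in capitals. Lcmt2 covers chr2:121140699-121140948 (minus strand), Prkab1 chr5:116024509-116024678 (minus), Nrde2 chr12:100159654-100159899 (minus) and Hmgb3 chrX:71555667-71555916 (plus).
Lcmt2: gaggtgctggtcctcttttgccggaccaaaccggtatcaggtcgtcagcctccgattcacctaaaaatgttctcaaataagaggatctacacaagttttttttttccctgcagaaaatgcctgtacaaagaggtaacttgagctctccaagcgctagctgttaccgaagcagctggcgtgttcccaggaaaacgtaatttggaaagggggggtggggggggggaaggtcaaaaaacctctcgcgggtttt
Prkab1: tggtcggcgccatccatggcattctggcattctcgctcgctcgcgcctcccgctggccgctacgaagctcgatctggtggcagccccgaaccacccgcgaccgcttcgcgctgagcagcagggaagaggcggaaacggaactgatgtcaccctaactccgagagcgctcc
Nrde2: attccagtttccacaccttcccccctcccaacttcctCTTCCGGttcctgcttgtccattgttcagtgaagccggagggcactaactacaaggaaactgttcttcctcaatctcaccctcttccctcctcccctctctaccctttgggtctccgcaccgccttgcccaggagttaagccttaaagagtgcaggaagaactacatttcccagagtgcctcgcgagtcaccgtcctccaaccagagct
Hmgb3: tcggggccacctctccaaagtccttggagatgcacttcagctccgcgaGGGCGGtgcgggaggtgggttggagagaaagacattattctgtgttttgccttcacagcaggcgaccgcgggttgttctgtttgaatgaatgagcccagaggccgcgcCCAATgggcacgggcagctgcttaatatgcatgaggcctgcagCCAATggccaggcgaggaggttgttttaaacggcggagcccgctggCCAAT
In Nrde2 the capitals mark the ETS motif CCGGAAG on the opposite strand, and in Hmgb3 a GC box (GGGCGG) followed by 3 CCAAT boxes. No searched motif matched in the stretches shown for Lcmt2 and Prkab1.

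The full RefSeq windows, 250 bases before to 50 bases after the start, were found for 9 of the 10 genes, 11 windows in all; the table gave none for Snapin. Matches on either strand were counted for 11 motifs. The ETS motif CCGGAAG was in the windows of 4 of the 9 genes (Nrde2, Prkab1, Slc35b3 and Wdr37) and in 8.86% of all 32851 windows. The match of Prkab1 lies in the exonic part that is not shown. A GC box was in windows of 5 genes and 35.7% of all windows, and a CCAAT box in windows of 5 genes and 37.4%. Heat shock element half-sites facing outward, TTCNNGAA, were in the window of Supv3l1 alone among the 9 genes and in 8.52% of all windows, and the facing form GAANNTTC was in none of the 9 against 7.86%. The motifs of NRF1, the TATA box (TATAAA) and the cAMP response element half-site (TGACGT) each matched 1 gene, Slc35b3, Slc35b3 and Supv3l1, against 4.60%, 13.6% and 7.51% of all windows. YY1 (ATGGCGG), ZNF143 and the E-box (CACGTG) matched none of the 9, against 4.05%, 1.01% and 7.15%. A gene with more than 1 window has more chances of a match, and a match of letters is no evidence of binding. Counted per gene, as for the 9, the shares over all genes were 9.93% (ETS), 38.2% (GC box) and 41.1% (CCAAT box). They were 9.6% for TTCNNGAA, 9.04% for GAANNTTC, 5.19% for NRF1, 15.7% for the TATA box and 8.37% for TGACGT. For YY1, ZNF143 and the E-box they were 4.69%, 1.17% and 8.09%. The base composition of the windows ranged from 42.7% GC in a window of Slc35b3 to 66.3% in its other window, around a median of 52.7% over all windows.

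Lcmt2 (ENSMUSG00000074890, GRCm38 chr2:121128307-121140653, minus strand) differed most among the 10 in hypothalamus, pituitary and mammary gland alike. In mammary gland the control libraries held 2.84 to 4.26 FPKM (median 3.46) and the heat libraries 0.901 to 1.54 (median 1.08). In hypothalamus the control libraries held 1.51 to 1.84 FPKM (median 1.67) and the heat libraries 0.684 to 1.25 (median 0.973). In pituitary the range was 2.74 to 4.22 FPKM in controls (median 3.59) and 1.70 to 2.73 after heat (median 2.57). Every heat library was below every control library in each tissue, by a narrow margin in pituitary. The heat mean was 0.327 times the control mean in mammary gland, 0.565 times in hypothalamus and 0.658 times in pituitary, or -1.06 ± 0.09, -0.45 ± 0.06 and -0.44 ± 0.09 on the log2 scale (estimate ± SE).

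Lcmt2 begins 225 bases from the start of Adal, an adenosine deaminase-like gene on the opposite strand, and 6.7% of its exon bases also belong to Adal exons; the sources used here do not state whether counting used the strand. Adal did not pass the test in hypothalamus, pituitary or mammary gland, with log2 changes of -0.05 ± 0.06, 0.02 ± 0.07 and -0.00 ± 0.09 (limma adjusted p = 0.999, 0.944 and 0.998). Its mammary level was 2.09 ± 0.39 FPKM in control and 2.05 ± 0.23 FPKM in heat libraries (SD, n = 8). Lcmt1, the paralog that methylates the catalytic subunit of protein phosphatase PP2A, also did not pass, with log2 changes of -0.09, -0.01 and -0.04 (limma adjusted p = 0.857, 0.960 and 0.817).

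Of the 5 tested genes of the wybutosine list, in which Lcmt1 was included, 1 fell in pituitary and 1 in mammary gland, Trmt12 in both. Trmt12 encodes the enzyme that transfers the side chain at an earlier step of the pathway. Its mammary level was 1.60 to 3.08 FPKM in control (median 2.29) and 0.869 to 1.77 FPKM in heat libraries (median 1.16), a log2 change of -0.56 ± 0.11 (limma adjusted p = 0.00702), with 8 of 8 heat libraries below the control median. In pituitary its mean was 2.15 ± 0.26 FPKM in controls and 1.66 ± 0.10 after heat, a log2 change of -0.23 ± 0.06 (limma adjusted p = 0.0397). That pituitary call ended when any 1 library was left out except control replicate 6 or heat replicates 3 or 8, with adjusted p of up to 0.0818, while the mammary call held in all 16 such fits. In hypothalamus Trmt12 had a log2 change of -0.05 ± 0.05 (limma adjusted p = 0.999).

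**Figure D3:**
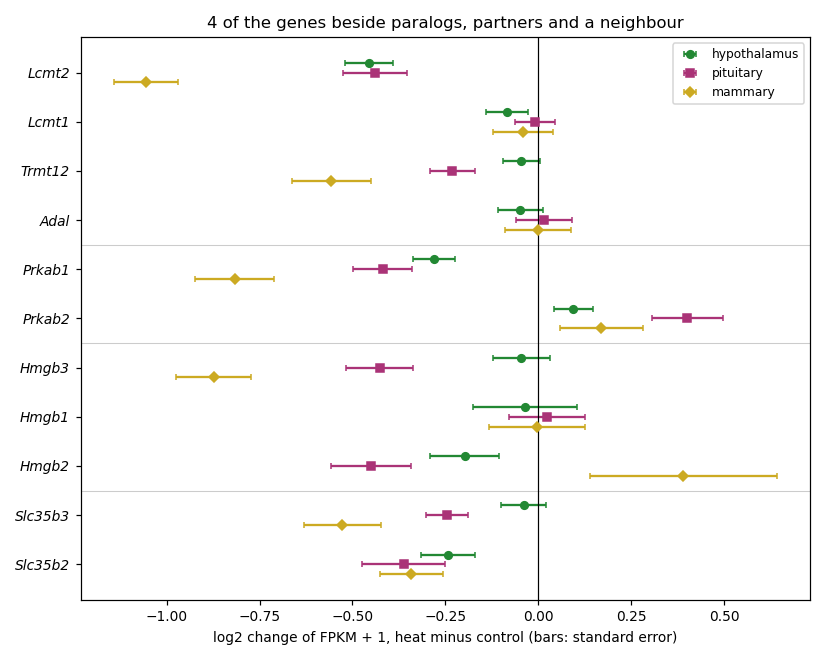
Log2 change of FPKM + 1, heat minus control, with its standard error in 3 tissues, for Lcmt2, Prkab1, Hmgb3 and Slc35b3, each above the related genes named in the text and separated by grey lines. Trmt12 lies below 0 in mammary gland and Prkab2 above 0 in pituitary, while Lcmt1, Adal and Hmgb1 lie close to 0.

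Prkab1 (ENSMUSG00000029513, GRCm38 chr5:116013586-116024508, minus strand) encodes the beta-1 subunit of AMP-activated protein kinase, which holds the catalytic and the nucleotide-binding subunits together. In mammary gland the control libraries held 14.4 to 21.8 FPKM (median 17.4) and the heat libraries 6.92 to 12.7 (median 8.56), with no overlap. In pituitary the controls held 7.53 to 9.60 FPKM (median 8.51) and the heat libraries 4.89 to 8.60 (median 6.10). In hypothalamus they held 3.64 to 4.91 FPKM (median 4.63) against 3.16 to 4.00 (median 3.39). The pituitary groups overlapped through heat replicate 8, at 8.60 FPKM, and 7 of 8 heat libraries there were below all controls. The heat mean was 0.538, 0.717 and 0.773 times the control mean in mammary gland, pituitary and hypothalamus, with log2 changes of -0.82 ± 0.11, -0.42 ± 0.08 and -0.28 ± 0.06.

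Prkab2, the gene of the alternative beta-2 subunit, rose in pituitary, where controls averaged 3.32 ± 0.40 FPKM and heat libraries 4.70 ± 0.92 (SD, n = 8; log2 change 0.40 ± 0.10, limma adjusted p = 0.0268), with 7 of 8 heat libraries above the control median. The call ended without control replicate 1, 3 or 5 or heat replicate 4, 5, 6 or 7, with adjusted p of up to 0.0576. In hypothalamus and mammary gland Prkab2 did not pass, at 0.09 ± 0.05 and 0.17 ± 0.11 (limma adjusted p = 0.743 and 0.399). Of the FPKM that the Prkab1 and Prkab2 genes held together, Prkab1 made up 72.1% ± 3.28 in control and 56.8% ± 6.64 in heat pituitary (SD, n = 8). Its share was 46.0% ± 2.72 and 38.2% ± 3.42 in hypothalamus and 94.0% ± 1.35 and 87.1% ± 3.34 in mammary gland. The share ranged from 67.1 to 76.6% over control and from 45.9 to 66.2% over heat libraries of pituitary, and as Prkab1 was chosen on its heat change these shares carry no test.

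Over the list of 16 other genes of the AMP-activated kinase, its upstream kinases and partners, 2 of 15 tested rose in pituitary and the rest did not pass there. Beside Prkab2 this was Stradb, which encodes a pseudokinase partner of the upstream kinase LKB1, at 1.31 ± 0.13 FPKM in controls and 1.70 ± 0.19 after heat (log2 0.23 ± 0.06, limma adjusted p = 0.0475). The Stradb call ended when any library but control replicate 2 or heat replicate 8 was left out (adjusted p of up to 0.102). The median log2 change of the list was 0.01, 0.05 and -0.01 in hypothalamus, pituitary and mammary gland, where that of all tested genes was 0.003, 0.005 and -0.010.

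Heatr3 (ENSMUSG00000031657, GRCm38 chr8:88137855-88172027, plus strand) encodes a HEAT-repeat protein. In hypothalamus the controls held 4.74 to 5.34 FPKM (median 5.07) and the heat libraries 3.30 to 4.46 (median 3.61). In mammary gland they held 6.13 to 8.36 (median 7.02) and 3.60 to 6.04 (median 4.75). In pituitary they held 2.93 to 4.13 (median 3.35) and 1.91 to 3.30 (median 2.61). The groups were apart in hypothalamus and mammary gland and overlapped in pituitary, where 5 of 8 heat libraries lay below all controls. The heat mean was 0.736, 0.680 and 0.774 times that of controls in hypothalamus, mammary gland and pituitary.

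The ribosomal protein genes Rpl5 and Rpl11, whose products join the 5S ribosomal RNA, did not pass in any tissue. Rpl5 stood at 137 ± 26.9 FPKM in control and 150 ± 26.8 FPKM in heat mammary gland (log2 0.16 ± 0.13, limma adjusted p = 0.537) and Rpl11 at 229 ± 38.4 and 243 ± 36.3 FPKM (log2 0.10 ± 0.11, adjusted p = 0.647). Of 25 genes of 5S particle and ribosome assembly, 1 fell in pituitary, Rrs1, whose product helps to seat the 5S particle in the large subunit (7.51 ± 1.41 to 5.49 ± 0.70 FPKM, log2 -0.37 ± 0.10, limma adjusted p = 0.0497). That call ended when any library but control replicate 1 or heat replicate 3 was left out (adjusted p of up to 0.106). In mammary gland Rrs1 had a log2 change of -0.41 ± 0.12 and did not pass (adjusted p = 0.0532). The median log2 change of the 25 genes was -0.004, -0.10 and -0.06 in hypothalamus, pituitary and mammary gland, beside 0.003, 0.005 and -0.010 over all tested genes. In pituitary 19 of the 25 were negative, beside 48.8% of all tested genes. At an unadjusted p under 0.05 (limma) 7 were lower and 1 higher there. Those counts were 3 lower and 0 higher in mammary gland and 0 in either direction in hypothalamus. The share of all tested genes at that unadjusted threshold was not counted, so these counts cannot be set against it.

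Nrde2 (ENSMUSG00000021179, GRCm38 chr12:100125452-100159653, minus strand) encodes a nuclear protein that in human cells binds the exosome helicase MTR4 and holds back its activity. In hypothalamus the controls held 2.92 to 3.95 FPKM (median 3.21) and the heat libraries 2.04 to 2.66 (median 2.34). In mammary gland they held 3.93 to 5.03 (median 4.54) and 2.29 to 4.26 (median 3.19), and in pituitary 2.85 to 4.58 (median 3.50) and 2.26 to 3.39 (median 2.82). Only in hypothalamus did the heat and control libraries of Nrde2 not overlap. The mammary difference was larger in libraries 4 to 8, with control and heat means of 4.57 and 2.80 FPKM, than in libraries 1 to 3 (4.34 and 3.99). For Nrde2 the difference between these sets was not tested.

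Mtrex, the gene of that helicase, did not pass in any tissue, with log2 changes of 0.02, -0.07 and 0.11 (limma adjusted p = 0.999, 0.818 and 0.471). Of 21 tested genes of the nuclear exosome and its adaptors, 2 fell and 1 rose in mammary gland. Mphosph6, an exosome-associated protein for processing of ribosomal RNA, fell from 4.83 ± 1.07 to 2.56 ± 0.58 FPKM (log2 -0.69 ± 0.12, limma adjusted p = 0.00403), and 8 of 8 heat libraries, at 1.83 to 3.48, were below the lowest control, 3.66. Exosc1, a cap subunit of the exosome, fell from 7.53 ± 0.86 to 5.79 ± 0.43 FPKM (log2 -0.31 ± 0.07, adjusted p = 0.0196). Papd7, a poly(A) polymerase, rose from 1.95 ± 0.39 to 2.69 ± 0.35 FPKM (log2 0.34 ± 0.09, adjusted p = 0.0459), a call that ended when any library but control replicates 6 or 8 or heat replicate 3 was left out (adjusted p of up to 0.0876).

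Wdr73 (ENSMUSG00000025722, GRCm38 chr7:80890723-80901269, minus strand) encodes a WD-repeat protein that binds the Integrator complex in human cells and is mutated in Galloway-Mowat syndrome. In hypothalamus the controls held 4.14 to 5.07 FPKM (median 4.40) and the heat libraries 3.25 to 4.23 (median 3.54), with 7 of 8 heat libraries below all controls. In mammary gland they held 2.12 to 3.61 (median 3.01) and 0.964 to 3.34 (median 1.61), on 19 to 97 fragments, the thinnest support of the 10 genes beside that of Lcmt2. In pituitary they held 3.93 to 5.54 (median 4.77) and 3.68 to 6.05 (median 4.50). The pituitary groups overlapped almost whole, and the highest of all 16 libraries there was a heat library.

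Of 15 Integrator genes, 2 fell in mammary gland, Ints14 and Ints10, both subunits of an arm of the complex that binds nucleic acid. Ints14 fell from 9.04 ± 0.97 to 6.88 ± 0.93 FPKM (log2 -0.34 ± 0.08, limma adjusted p = 0.0253), a call that ended without control replicate 8 or heat replicate 4 (adjusted p of up to 0.0555). Ints10 fell from 5.83 ± 0.25 to 4.68 ± 0.68 FPKM (log2 -0.26 ± 0.07, adjusted p = 0.0347), a call that held only without control replicate 6 or heat replicates 1, 2, 3 or 7 among the 16 fits with 1 library left out (adjusted p of up to 0.0753).

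Hmgb3 (ENSMUSG00000015217, GRCm38 chrX:71555918-71560676, plus strand) encodes a chromatin protein with HMG boxes that bends DNA. In mammary gland the controls held 5.82 to 7.85 FPKM (median 6.43) and the heat libraries 2.17 to 4.45 (median 2.99), with no overlap and a heat mean 0.478 times that of controls. In pituitary they held 4.33 to 6.25 (median 4.99) and 2.69 to 4.53 (median 3.62), a ratio of means of 0.690. In hypothalamus they held 7.36 to 9.35 (median 8.52) and 6.62 to 10.4 (median 7.82), a ratio of 0.957. The hypothalamic groups overlapped almost whole, and libraries 1 to 3 alone had a heat mean of 9.39 FPKM against 9.10 in controls. The log2 changes were -0.87 ± 0.10, -0.43 ± 0.09 and -0.05 ± 0.08 in mammary gland, pituitary and hypothalamus.

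Hmgb1 did not pass in any tissue, with log2 changes of -0.04 ± 0.14, 0.02 ± 0.10 and -0.00 ± 0.13 in hypothalamus, pituitary and mammary gland (limma adjusted p = 0.999, 0.939 and 0.992). Hmgb2, a paralog linked to dividing cells, fell in pituitary from 2.42 ± 0.39 to 1.50 ± 0.44 FPKM (log2 -0.45 ± 0.11, adjusted p = 0.0263), a call that ended without control replicate 1 or 4 or heat replicate 4, 5 or 7 (adjusted p of up to 0.0568). In mammary gland Hmgb2 had a log2 change of 0.39 ± 0.25 and did not pass (adjusted p = 0.393), with control libraries from 1.19 to 5.71 FPKM and heat libraries from 1.81 to 6.40. Whether Hmgb3 and its paralogs differ in their heat change was not tested.

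Snapin (ENSMUSG00000001018, GRCm38 chr3:90488026-90491033, minus strand) encodes a subunit of the BLOC-1 and BORC complexes, which act on lysosomes and synaptic vesicles. In pituitary the controls held 11.2 to 14.3 FPKM (median 12.4) and the heat libraries 8.41 to 11.7 (median 9.62). In mammary gland they held 5.28 to 6.82 (median 6.22) and 3.49 to 5.35 (median 4.37), and in hypothalamus 16.3 to 19.2 (median 18.2) and 12.3 to 19.6 (median 16.4). In pituitary and mammary gland 7 of 8 heat libraries of Snapin were below all controls, and in hypothalamus 4 of 8. Its exons share 15.5% of their bases with Ilf2, the largest share among the 10. Of the BLOC-1, BORC and SNAP genes, 1 of 14 tested rose in hypothalamus, Snap23, a membrane fusion protein (2.42 ± 0.25 to 3.06 ± 0.25 FPKM, log2 0.26 ± 0.06, limma adjusted p = 0.0397). The Snap23 call ended when any library but control replicates 1 or 8 or heat replicate 2 was left out (adjusted p of up to 0.0978). Bloc1s1, which shares both complexes with Snapin, did not pass the filter on low values.

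Supv3l1 (ENSMUSG00000020079, GRCm38 chr10:62429209-62449738, minus strand) encodes the helicase that works with the nuclease PNPT1 in the decay of mitochondrial RNA. In mammary gland the controls held 3.11 to 5.31 FPKM (median 4.31) and the heat libraries 2.36 to 4.07 (median 3.04). In pituitary they held 3.64 to 4.40 (median 4.07) and 2.96 to 3.70 (median 3.33), and in hypothalamus 4.46 to 5.89 (median 5.01) and 3.94 to 4.61 (median 4.27). The groups overlapped in each tissue, and 8 of 8 heat libraries lay below the control median in each. Pnpt1 did not pass, with log2 changes of -0.01, -0.14 and -0.09 (limma adjusted p = 0.999, 0.348 and 0.640). Among the 13 mitochondrially encoded mRNAs the median log2 change was -0.02, -0.22 and -0.13 in hypothalamus, pituitary and mammary gland. Under limma 0 of these 13 passed in any tissue, and voom on recovered fragments also called 0. At an unadjusted p under 0.05 (limma) 0, 2 and 1 were lower and none higher. The share of all tested genes at that unadjusted threshold was not counted.

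Wdr37 (ENSMUSG00000021147, GRCm38 chr13:8802968-8871909, minus strand) encodes a WD-repeat partner of PACS1 and PACS2, proteins that sort cargo between the Golgi and endosomes. In mammary gland the controls held 2.71 to 3.60 FPKM (median 3.06) and the heat libraries 2.10 to 2.57 (median 2.42), without overlap. In pituitary they held 2.56 to 3.46 (median 2.93) and 1.88 to 2.69 (median 2.04), and in hypothalamus 4.64 to 7.39 (median 5.13) and 3.73 to 5.81 (median 5.08). In hypothalamus the Wdr37 medians nearly coincided, and the controls spread most, with a CV of 18.8%. Libraries 1 to 3 there had means of 6.73 FPKM in control and 5.58 in heat, and libraries 4 to 8 means of 4.865 and 4.65. The difference between these sets was not tested. Pacs1 had log2 changes of -0.07, 0.12 and -0.15 and did not pass (limma adjusted p = 0.999, 0.502 and 0.599).

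Slc35b3 (ENSMUSG00000021432, GRCm38 chr13:38932136-38960875, minus strand) encodes a Golgi transporter of PAPS, the donor for sulfation of glycans and proteins. In mammary gland the controls held 4.05 to 6.67 FPKM (median 4.87) and the heat libraries 2.35 to 4.17 (median 3.03). In pituitary they held 1.79 to 2.54 (median 2.32) and 1.57 to 1.82 (median 1.75), and in hypothalamus 1.15 to 1.61 (median 1.47) and 1.11 to 1.60 (median 1.30). Heat libraries were tightly grouped in pituitary, with a CV of 4.51% against 10.9% in controls, and in hypothalamus the groups covered nearly the same range. The heat mean was 0.626, 0.762 and 0.942 times the control mean in mammary gland, pituitary and hypothalamus.

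Slc35b2, the gene of the other PAPS transporter, fell in mammary gland, from 60.0 to 72.5 FPKM in controls (median 61.6) to 39.2 to 64.5 after heat (median 50.8; log2 -0.34 ± 0.08, limma adjusted p = 0.0264), with 7 of 8 heat libraries below the control median. That call ended without control replicate 1 or 2 or heat replicate 4, 5 or 8 (adjusted p of up to 0.0579). Slc35b2 had log2 changes of -0.24 ± 0.07 in hypothalamus and -0.36 ± 0.11 in pituitary, which did not pass (adjusted p = 0.167 and 0.0895), although each passed without 1 heat library, replicate 2 of hypothalamus (0.0285) and replicate 3 of pituitary (0.0160). Among the 14 tested genes of sulfate donor supply and Golgi sulfotransferases, 2 rose in mammary gland. Papss2, which makes PAPS, rose from 1.22 ± 0.33 to 2.18 ± 0.53 FPKM (log2 0.53 ± 0.12, adjusted p = 0.0183), and Tpst1, a tyrosine sulfotransferase, from 3.81 ± 0.82 to 5.53 ± 0.85 FPKM (log2 0.47 ± 0.11, adjusted p = 0.0246). All 8 heat libraries were above the control median for both, and the Tpst1 call ended with no filter on low values (adjusted p = 0.0581). In pituitary 1 of 14 rose, Bpnt1, which breaks down the spent donor (12.3 ± 1.17 to 17.2 ± 3.09 FPKM, log2 0.45 ± 0.11, adjusted p = 0.0347), a call that ended when any library but control replicate 1 or heat replicates 3 or 8 was left out (adjusted p of up to 0.0750).

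Over all 11 lists, which hold 162 genes chosen for their link to a member and no member itself, 0 of 155 tested fell and 1 rose in hypothalamus. In pituitary 3 of 150 fell and 3 rose, and in mammary gland 6 of 147 fell and 3 rose. As shares these are 0% lower and 0.645% higher, 2.00% and 2.00%, and 4.08% and 2.04%, beside 0.122% and 0.559%, 1.42% and 2.37%, and 2.47% and 2.84% of all tested genes. Most partners of the 10 genes thus did not pass the test, and the shares lie near those of all genes. In hypothalamus 3 listed genes were lower and 10 higher at an unadjusted p under 0.05 (limma), and voom on recovered fragments called 0 in either direction. The unadjusted counts leaned the other way in pituitary (19 lower, 11 higher) and mammary gland (20 lower, 7 higher). The share of all tested genes at that unadjusted threshold was not counted. In pituitary and mammary gland voom called 2 lower and 3 higher, and 7 lower and 3 higher. The change was negative for 91 of 155, 86 of 150 and 95 of 147 listed genes, beside 48.8%, 48.8% and 51.8% of all tested genes. The median log2 change over the listed genes was -0.01, -0.04 and -0.06.

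**Figure D4:**
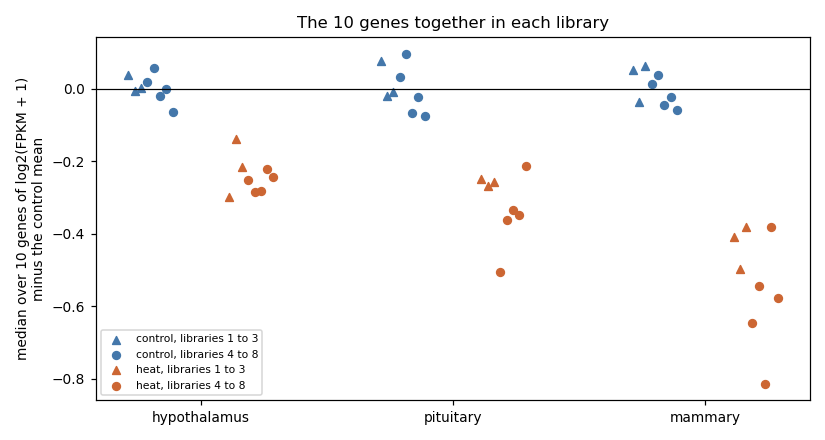
Median over the 10 genes of log2(FPKM + 1) minus the control mean of the gene, in every library, with triangles for libraries numbered 1 to 3 and circles for 4 to 8. Heat libraries lie between -0.30 and -0.14 (hypothalamus), -0.51 and -0.21 (pituitary) and -0.81 and -0.38 (mammary gland), below all control libraries of the tissue.

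Taken library by library, the median of the 10 genes against their control means lay between -0.30 and -0.14 in the 8 heat libraries of hypothalamus and between -0.07 and 0.06 in the 8 controls. In pituitary the ranges were -0.51 to -0.21 and -0.07 to 0.10, and in mammary gland -0.81 to -0.38 and -0.06 to 0.06. No heat library of any tissue reached the range of its controls, a separation that the choice of genes favours. Each heat library had 7 to 10 of the 10 genes below the control mean in hypothalamus, 8 to 10 in pituitary and 9 or 10 in mammary gland.

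Mean levels of some markers of other cells differed between libraries numbered 1 to 3 and 4 to 8. The labels name no batch. The summed level of 7 lymphocyte markers in mammary gland was 2.41 to 58.4 FPKM in control (median 2.92) and 2.34 to 89.4 FPKM in heat libraries (median 27.9). In libraries 1 to 3 its mean was 2.75 in control and 3.16 in heat, and in libraries 4 to 8 it was 14.1 and 54.9. The control mean of 14.1 includes the highest control library, at 58.4 FPKM, and lies well above the control median of 2.92. In pituitary the sum of 4 markers of the neurointermediate lobe was 2.33 to 64.6 in control and 9.08 to 131 FPKM in heat libraries. That of 5 anterior lobe markers was 385 to 751 and 262 to 530. The neurointermediate means of libraries 1 to 3 and 4 to 8 were 28.5 and 51.3 in control and 33.2 and 83.8 in heat. For the anterior lobe they were 518.5 and 621 in control and 364.5 and 428 in heat. The median log2 change of the 10 genes was -0.44 in libraries 1 to 3 and -0.56 in libraries 4 to 8 of mammary gland, -0.25 and -0.34 in pituitary, and -0.21 and -0.25 in hypothalamus. The median was thus negative in both sets of each tissue, and among single genes Hmgb3 in hypothalamus was the exception, at 0.05 in libraries 1 to 3 and -0.11 in libraries 4 to 8. Both sets were part of the contrast that chose the genes, which favours a negative median in each. The part of lymphocytes and of the lobes in the changes was not tested.

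The levels of the 10 genes between tissues were not used to choose them and could be tested over the 24 control libraries (limma, adjusted over 14786 genes in each contrast). Between pituitary and hypothalamus 8 of the 10 differed, where 73.1% of all tested genes did; 3 were higher and 5 lower in pituitary, beside 32.3% and 40.8% of all genes. Between mammary gland and hypothalamus all 10 differed, beside 83.9%, with 5 higher and 5 lower in mammary gland (38.2% and 45.7%). Between mammary gland and pituitary 7 differed, beside 80.7%, with 5 higher and 2 lower in mammary gland (37.2% and 43.5%). A difference between tissues was thus as common over all genes as among these 10. The order of tissues rests on the median-ratio scaling of the libraries, which the deposited values already hold. In control replicate 1, 1 fragment in a gene of 1 kb was worth 0.0382 FPKM in hypothalamus, 0.0410 in pituitary and 0.188 in mammary gland. These libraries held 20445600, 14183200 and 14907800 fragments. Per total fragments mammary levels would be lower beside the other tissues, and such levels were not compared.

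Prkab1 and Slc35b3 increased in the order hypothalamus, pituitary, mammary gland. Prkab1 stood at 4.48 ± 0.39, 8.61 ± 0.67 and 17.1 ± 2.58 FPKM (SD, n = 8), 3.81 times as high in mammary gland as in hypothalamus (log2 1.72, 95% interval 1.57 to 1.87, limma adjusted p = 3.48e-17). Slc35b3 stood at 1.42 ± 0.16, 2.28 ± 0.25 and 4.98 ± 0.83 FPKM, a 3.50-fold difference between the ends (log2 1.30, 1.15 to 1.45, adjusted p = 9.43e-15). Snapin took the opposite order, at 18.0 ± 1.06, 12.6 ± 1.04 and 6.15 ± 0.55 FPKM, and was 2.92 times as high in hypothalamus as in mammary gland (mammary minus hypothalamus log2 -1.41, -1.52 to -1.29, adjusted p = 8.76e-18). For these 3 genes the control libraries of no pair of tissues overlapped.

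Lcmt2 was lowest in hypothalamus, at 1.69 ± 0.13 FPKM. Its difference between pituitary (3.60 ± 0.45) and mammary gland (3.47 ± 0.46) did not pass (log2 -0.03, 95% interval -0.17 to 0.11, limma adjusted p = 0.689). Wdr37 was highest in hypothalamus, at 5.57 ± 1.04 FPKM. Its difference between pituitary (2.94 ± 0.31) and mammary gland (3.10 ± 0.36) did not pass (log2 0.07, -0.10 to 0.24, adjusted p = 0.468). Heatr3 was highest in mammary gland, at 7.06 ± 0.85 FPKM, then hypothalamus (5.00 ± 0.21) and pituitary (3.42 ± 0.40), and each step passed (adjusted p of at most 1.25e-06). Hmgb3 was highest in hypothalamus, at 8.53 ± 0.73 FPKM, then mammary gland (6.59 ± 0.68) and pituitary (5.14 ± 0.63), and each step passed (adjusted p of at most 0.000149).

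Nrde2 was highest in mammary gland, at 4.49 ± 0.43 FPKM. Its difference between hypothalamus (3.25 ± 0.32) and pituitary (3.58 ± 0.54) did not pass (log2 0.10, 95% interval -0.05 to 0.24, limma adjusted p = 0.218). Wdr73 was lowest in mammary gland, at 2.91 ± 0.55 FPKM. Its difference between hypothalamus (4.50 ± 0.31) and pituitary (4.78 ± 0.52) did not pass (log2 0.06, -0.10 to 0.22, adjusted p = 0.499). Supv3l1 varied least, at 5.08 ± 0.57 FPKM in hypothalamus, 4.03 ± 0.28 in pituitary and 4.33 ± 0.62 in mammary gland. Its difference between mammary gland and hypothalamus (log2 -0.19, -0.34 to -0.04, adjusted p = 0.0166) ended without mammary control replicate 5 (adjusted p = 0.0546) and changed sign under quantile normalization (0.04, adjusted p = 0.595). Its difference between mammary gland and pituitary (0.09, adjusted p = 0.256) passed without that same library (0.14, adjusted p = 0.0342). Quantile normalization, which moved the median of all genes by 0.22 for mammary gland and 0.12 for pituitary against hypothalamus, ended the call of Supv3l1 between pituitary and hypothalamus (adjusted p = 0.138). Under it Nrde2 and Wdr73 passed between these tissues (0.25 each, adjusted p = 0.00421 and 0.00278), as did Supv3l1 and Wdr37 between mammary gland and pituitary (0.16 and 0.25, adjusted p = 0.044 and 0.0107).

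The 10 genes had a median of 8 merged exons and 3535.5 exonic bases, beside 8 exons and 3795.5 bases over 16230 tested genes with an annotation. Apart from the gene beside Lcmt2, a gene starting on the opposite strand within 1000 bases was annotated for 3 members, Gm9988 for Heatr3, 4930507D05Rik for Supv3l1 and 5033403F01Rik for Slc35b3, and each of them was below the filter. The members lie on 9 chromosomes.

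By the root mean square difference over the 3 tissues from the median heat change of the 10 genes, the most alike named genes among 9687 tested in all tissues were Rpp38 (difference 0.015 on the log2 scale), Sephs2 (0.023) and Wdr5b (0.037). Rpp38 encodes a protein of ribonuclease P, which trims tRNA ends, Sephs2 makes the selenium donor for selenoproteins and Wdr5b is a WD-repeat gene. Rpp38 had log2 changes of -0.21, -0.30 and -0.52 in hypothalamus, pituitary and mammary gland, of which that in mammary gland passed (limma adjusted p = 0.761, 0.114 and 0.0445). Wdr5b had -0.28, -0.30 and -0.49, of which that in mammary gland passed (adjusted p = 0.267, 0.286 and 0.0331), and Sephs2 -0.22, -0.28 and -0.46, none of which passed (adjusted p = 0.761, 0.147 and 0.0726). These genes have 2, 1 and 1 merged exons, in the order Rpp38, Sephs2 and Wdr5b.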

How the data were processed

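An FPKM value for each of 58913 genes was deposited by the authors for each of 48 libraries, whose groups follow their titles. Alignment with HISAT2 2.0.5, counting with featureCounts 1.5.0-p3 and testing with DESeq2 1.16.1 are named in the submitters' processing notes; strandedness and treatment of multiply aligned reads are not given in the sources used here. The labels name build mm9, but union exon lengths of GENCODE M21 (GRCm38) turned 94.7 to 96.9% of values under 50 fragments into whole fragments within 0.02, so coordinates follow that annotation. The deposited values were already scaled: over 13815 genes each library had the same median ratio, 1.0123, to the geometric mean of all. Symbols were found for 53274 genes, and no 2 libraries held identical values.

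Each library was scaled within its tissue by that same kind of ratio, and a gene was tested where its mean FPKM reached 1. The model was limma 3.58.1 (R 4.3.3; empirical Bayes, trend) of log2(FPKM + 1) on 8 heat and 8 control libraries. Tests were 2-sided, p-values were adjusted by Benjamini-Hochberg over all tested genes, and the threshold was 0.05. Tissue contrasts used the 24 control libraries in 1 fit. Fits were tried on simulated data with independent noise for each gene and library. Such data hold no effects shared within a library, so they do not show how the fits behave where there are some. The members and the gene lists were chosen with earlier results of these data known, so lists are described by counts. Beside the members, genes were named by rule. These were fixed paralogs and partners, neighbours, and the 2 largest changes past the threshold per list and tissue. Exosc1 was named beyond it, after its values were seen. Added were 3 genes alike in their changes (unnamed and predicted genes left out), and Hspa1b and Cirbp to check the treatment labels. Cirbp had log2 changes of -0.46, -1.02 and -0.70 in hypothalamus, pituitary and mammary gland (limma adjusted p = 0.0168, 0.000247 and 0.0590). In mammary gland it thus did not pass, and its groups overlapped, at 3.45 to 10.5 FPKM in control and 1.75 to 4.21 in heat. Libraries of the same number deviated together across control tissues (r of at least 0.124 in 8 of 8 pairs for each pair of tissues). Across heat tissues r was over 0.1 in 8 of 8 pairs for mammary gland with hypothalamus and with pituitary. It was over 0.1 in 7 of 8 for hypothalamus with pituitary. The labels do not say whether a number marks 1 dam, so the tissues cannot be taken as independent. The replicate block changed no tissue call of a member. Between heat and control of a tissue r was over 0.1 in 7, 7 and 3 of 8 pairs (hypothalamus, pituitary, mammary gland), short of all pairs, so the numbers were not taken as pairing them. Alternatives were a pseudocount of 0.1, no filter, a filter of 5, FPKM as deposited, quantile normalization, the replicate block, 1 fit of 48 libraries, a term for libraries 1 to 3 against 4 to 8, voom on recovered fragments and each library left out. Promoter windows are RefSeq's on GRCm38.p6. The remaining steps ran in Python 3.11.15 (pandas 2.3.3, numpy 2.4.6, scipy 1.17.1), with figures by matplotlib 3.10.9.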

Additional observations from a re-analysis of the deposited data

Results flagged for a closer look

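Of the 60 groups of 8 libraries (10 genes, 3 tissues, control and heat), 3 held a library far from the others by Dixon's criterion, as many as the 1 in 20 that chance gives. Prkab1 in heat pituitary was 8.60 FPKM in replicate 8, with the next library at 6.32 FPKM. Nrde2 in control hypothalamus was 3.95 FPKM in replicate 5, with the next at 3.36 FPKM. Wdr73 in heat hypothalamus was 4.23 FPKM in replicate 2, with the next at 3.66 FPKM.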

How the results depend on the processing

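The 10 genes were chosen on this contrast and the alternatives reuse the same libraries, both of which favour a kept sign. The log2 change of each of the 10 genes stayed negative in each tissue under every alternative that used all libraries of a tissue. It also did so in every fit with 1 library left out. Hmgb3 in hypothalamus in libraries 1 to 3 alone (0.05) was the exception among the alternatives run. Their median was -0.29, -0.38 and -0.63 (hypothalamus, pituitary, mammary gland) with voom on recovered fragments, which adds no pseudocount of 1 FPKM, and ranged over fits with 1 library left out from -0.23 to -0.20, -0.31 to -0.26 and -0.54 to -0.44; a filter of 5 gave no median, since not all members pass it. The number of members past the threshold, 5, 7 and 10, was 0, 2 and 3 with a filter of 5, under which fewer members are tested, 3 in hypothalamus in 1 fit of 48 libraries, 6 in mammary gland with no filter, and 3 to 5, 4 to 8 and 7 to 10 with 1 library left out. Most often lost were the calls of Wdr73 in mammary gland (13 of 16 such fits), Supv3l1 in pituitary (11), Wdr37 in pituitary and Prkab1 in hypothalamus (10 each), Nrde2 (9) and Wdr37 (8) in mammary gland, Wdr73 in hypothalamus (7) and Slc35b3 in pituitary (2). The cause was not tested.

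Counts over all genes moved more. In hypothalamus the 17 lower and 78 higher genes became 4 lower with a filter of 5, 45 higher with no filter, 33 and 23 in 1 fit of 48 libraries, 113 and 373 with the library set term, and 9 to 29 and 36 to 97 with 1 library left out. In pituitary 200 and 334 became 66 and 148 with a filter of 5, 405 lower in 1 fit of 48 libraries, 696 and 1024 with the set term, and 120 to 369 and 211 to 534 with 1 library left out. In mammary gland 311 and 357 became 151 lower with no filter, 173 and 191 with a filter of 5, 1237 and 1134 in 1 fit of 48 libraries, and 177 to 352 and 238 to 403. The replicate block gave 45 lower and 236 higher in hypothalamus and 454 and 759 in pituitary, with 5 listed genes higher in hypothalamus and 8 lower in pituitary, and 5, 8 and 7 members lower. Heat and control libraries of the same number correlated with a median r of 0.379, 0.289 and 0.022, over 0.1 in 7, 7 and 3 of 8 pairs, and best with their own number in 2, 1 and 2 of 8; as not every pair passed and the labels name no shared animal or day, the block is an alternative here.

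Listed genes called higher in hypothalamus, 1 by the fit reported, numbered 0 with no filter, a filter of 5, FPKM as deposited, 1 fit of 48 libraries or voom, and 6 with the set term, which also called 1 lower; they were 0 to 1 in each direction with 1 library left out. In pituitary 3 lower and 3 higher became 0 and 0 with no filter, 0 and 1 with a filter of 5, 5 and 1 with quantile normalization, 5 lower in 1 fit of 48 libraries, 12 and 8 with the set term, and 0 to 6 and 0 to 3. In mammary gland 6 lower and 3 higher became 1 higher with no filter, 0 higher with a filter of 5, 18 and 7 in 1 fit of 48 libraries, 11 lower with the set term, and 3 to 9 and 2 to 3. Of the named listed genes, Trmt12, Mphosph6 and Exosc1 in mammary gland passed in every fit run for them (adjusted p of up to 0.0175, 0.0179 and 0.0437). With no filter on low values all other named calls but those of Slc35b2 and Papss2 ended, and the block ended those of Papss2 (adjusted p = 0.0711), Ints10, Ints14 and Stradb. Members differing between tissues, 8, 10 and 7, were 4 in each contrast with a filter of 5, under which fewer are tested, and 8, 9 to 10 and 7 to 8 with 1 library left out. The mammary minus hypothalamus difference of Supv3l1, -0.19, was 0.041 under quantile normalization. Low fragment counts of the members limit the mammary values most, with down to 17 fragments behind a library's value. The mammary libraries held about as many fragments in all as those of pituitary.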
